A study of Mus musculus with 4 samples.

Results

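The 10 genes described here build or control the contractile machinery of heart muscle, and they were measured in RNA of the mouse first pharyngeal arch, a tissue outside the heart. They were chosen by symbol from a list of cardiac muscle genes, and all 10 were found among the 52459 genes of the deposited table. The arch is the outgrowth that forms the jaws; the embryos had 25 to 27 somites and were at E9.5 to E9.75. There were 2 groups: 2 libraries came from Wnt1-Cre;pMes-Bmp4 embryos and 2 from wild-type embryos. In the transgenic genotype the Wnt1-driven Cre recombinase, which acts in neural crest, switches on a Bmp4 transgene; no library carried either transgene alone. Strain, sex, the number of embryos in a library and whether same-numbered libraries share a litter are not stated by the sources used here, so the p-values cover the spread among these libraries alone, and that spread may be technical. In bulk RNA of a whole arch, fewer cells of a type and less RNA per cell cannot be told apart.

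Heart muscle contracts through sarcomeres, in which myosin thick filaments pull on actin thin filaments under the control of troponin. Several of the 10 genes are named for the heart but are also used by embryonic skeletal muscle, among them Actc1, Tnnt2, Tnni1, Myl4, Myl3, Myh7 and Actn2. The mesoderm in the core of the arches gives rise to muscles of the head, and neighbouring pharyngeal mesoderm adds cells to the heart tube, which lies just behind the first arch at this stage. Cardiac muscle itself comes from mesoderm and not from the Wnt1-Cre neural crest lineage.

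None of the 9 cardiac muscle genes tested was called higher or lower between the genotypes at a limma adjusted p under 0.05, and Myl3 was not tested. For 7 of the 9 the 95% interval of the log2 fold change reached past a 2-fold change. Of all 10 genes, 8 lay at or below percentile 23.4 of the genes tested, in reads per length. Actc1 and Myl7 were the exceptions in level, at 129 or more normalized reads in every library. The other 8 genes lay between 2.42 and 42.2 normalized reads in every library. Normalized reads are read counts over the size factor of their library. The 10 genes together took 0.00191% and 0.00147% of the reads in Wnt1-Cre;pMes-Bmp4 libraries 1 and 2, against 0.00149% and 0.00150% in wild-type libraries 1 and 2. These were 600 and 434 reads in the transgenic libraries and 712 and 505 in the wild-type libraries. Actc1 and Myl7 made up 80.0% and 76.5% of them in the transgenic libraries and 68.1% and 71.5% in the wild-type libraries.

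Of the 10 genes, 9 had a mean of at least 10 normalized reads over the 4 libraries and were tested, and Myl3 was not. In limma 0 were higher and 0 were lower at an adjusted p under 0.05, and 0 reached an unadjusted p under 0.05, against 28.8% of all genes tested. By the same rule 8.25% of the 16746 genes tested were called, 2.97% higher and 5.28% lower. Of the 9, 7 had a mean between 10 and 50, a range in which 0.83% of 4335 genes were called, so a count of 0 among 7 is close to the background. The share at an unadjusted p under 0.05 was not counted in that range, so the 28.8% is not matched for level. On the recovered reads the quasi-likelihood test of edgeR also called 0 of the 9. DESeq2 gave an adjusted p to 2 of the 9, Actc1 and Myl7, and called 0 of these; the other 7 had none, since it sets aside genes with few reads. Neither tool gave any of the 9 an unadjusted p under 0.05. The log2 fold change, Wnt1-Cre;pMes-Bmp4 minus wild-type, was above 0 for 4 of the 9 and below 0 for 5. Their median was -0.10, beside 0.02 over all genes tested.

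**Figure D1:**
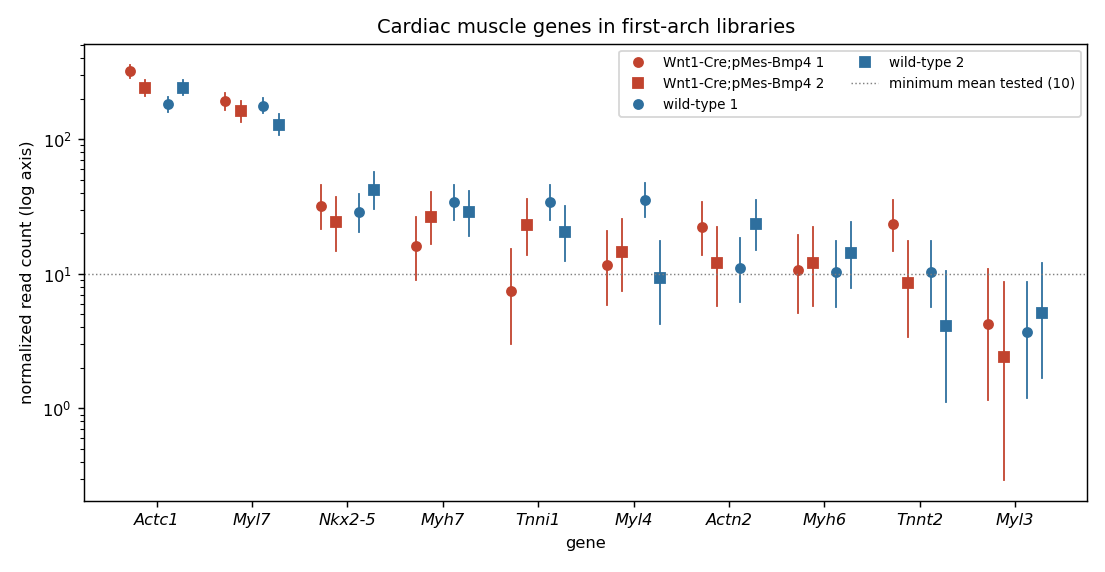
Normalized read count (log axis) of the 10 cardiac muscle genes in each library, with Wnt1-Cre;pMes-Bmp4 in red to the left of wild-type in blue; circles are library 1, squares library 2, and vertical lines are exact 95% Poisson intervals, which cover counting error only. Actc1 and Myl7 stand above 100 in every library, and the other 8 genes lie at or below 42.2.

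Depth and tissue were checked first. The libraries held 31404494 and 29607541 reads in Wnt1-Cre;pMes-Bmp4 and 47849092 and 33763574 in wild-type. Bmp4, the gene of the transgene, averaged 2200 ± 644 normalized reads in Wnt1-Cre;pMes-Bmp4 and 559.4 ± 173 in wild-type (SD, n = 2 each), and rose (limma adjusted p 0.0211). That call was lost without wild-type library 1 and without wild-type library 2, where the limma adjusted p values were 0.115 and 0.348. All 10 mesenchyme markers of the first arch passed the minimum level, with a median of 1123 normalized reads per kb and a median log2 fold change of -0.41. In limma 6 of the 10 had an unadjusted p under 0.05 (28.8% of all genes tested). Of the 10, 2 were called higher and 2 lower, against 2.97% and 5.28% of all genes tested. Among them Msx1 and Prrx2, homeobox genes of the mesenchyme, rose by 1.16 and 1.00 on the log2 scale, and Barx1 and Tfap2a, transcription factors of arch and crest, had log2 fold changes of -2.21 and -1.06 and fell, with limma adjusted p values from 0.0237 to 0.0321. These 4 calls came to 0 without either wild-type library or without the variance trend, and to 1, that of Tfap2a, after a correction for transcript length. Barx1 was also not called with robust priors (limma adjusted p 0.190). Of 6 Hox genes active in the arches behind the first, 0 passed the minimum level. Their summed levels were 5.33 and 9.70 in Wnt1-Cre;pMes-Bmp4 and 11.1 and 4.11 in wild-type.

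Nkx2-5, the homeobox transcription factor at the head of the cardiac program, is also known in pharyngeal endoderm. Its gene is at chr17:26838664-26845009 (GRCm38). The libraries read 32.0 and 24.2 normalized reads in Wnt1-Cre;pMes-Bmp4 against 28.9 and 42.2 in wild-type. The groups overlapped, since wild-type library 1 fell between both transgenic libraries. On the log2 scale the fold change was -0.32 ± 0.45 (SE), its 95% interval ran from -1.36 to 0.73, and the limma adjusted p was 0.673. Its close relative Nkx2-6, a factor of the pharyngeal endoderm and outflow region, rose, with 96.0 and 74.0 in Wnt1-Cre;pMes-Bmp4 against 20.0 and 11.3 in wild-type (limma adjusted p 0.0301). Whether the 2 factors differ in their response was not tested.

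The myosin heavy chains are the motors of the thick filament. Myh6 encodes the alpha chain and Myh7 the beta chain, which is also the slow skeletal form. They are neighbours on chromosome 14, at 54941921 to 54966927 and 54970684 to 54994626 of GRCm38, 3756 bases apart. Their transcripts share long identical stretches, shown here because a read that lies wholly inside one matches both genes. Of all 50-base windows of the coding transcript, 22.6% in Myh6 and 28.2% in Myh7 also occurred in a transcript of another gene. The longest identical coding run measured 245 bases. It is in capitals below, with 15 flanking coding bases in lower case on each side, as spliced sense sequence of GENCODE M21. The Myh6 window spans exons 30 to 31 at chr14:54948312-54948740 and the Myh7 window exons 32 to 33 at chr14:54974932-54975362, both on the minus strand of GRCm38.
Myh6: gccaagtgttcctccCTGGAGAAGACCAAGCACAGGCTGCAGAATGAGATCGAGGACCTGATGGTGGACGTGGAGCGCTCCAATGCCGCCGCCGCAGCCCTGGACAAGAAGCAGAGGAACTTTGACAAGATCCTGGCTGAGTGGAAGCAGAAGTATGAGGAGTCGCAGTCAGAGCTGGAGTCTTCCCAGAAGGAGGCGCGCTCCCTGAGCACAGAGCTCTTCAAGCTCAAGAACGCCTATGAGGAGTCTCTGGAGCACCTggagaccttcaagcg
Myh7: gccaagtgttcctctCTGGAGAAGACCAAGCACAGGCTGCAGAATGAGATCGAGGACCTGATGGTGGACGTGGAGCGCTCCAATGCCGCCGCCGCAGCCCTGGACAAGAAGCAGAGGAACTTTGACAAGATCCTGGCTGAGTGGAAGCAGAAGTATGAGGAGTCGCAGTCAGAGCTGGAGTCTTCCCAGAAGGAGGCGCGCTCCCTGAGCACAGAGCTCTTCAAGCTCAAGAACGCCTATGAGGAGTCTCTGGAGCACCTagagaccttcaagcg

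Myh6 had 10.7 and 12.1 normalized reads in Wnt1-Cre;pMes-Bmp4 against 10.4 and 14.4 in wild-type. These were 10 and 10 reads in the transgenic libraries and 14 and 14 in the wild-type libraries. Both transgenic values lay between the wild-type values, with a log2 fold change of -0.10 ± 0.61 (SE, limma adjusted p 0.931). Myh7 had 16.0 and 26.7 in Wnt1-Cre;pMes-Bmp4 against 34.1 and 28.8 in wild-type. It was the 1 member of 10 whose groups did not overlap, with the transgenic libraries lower; this was so for 59.7% of all genes tested in either direction. The log2 fold change of Myh7 was -0.58 ± 0.48 (SE), its 95% interval ran from -1.71 to 0.56, and the limma adjusted p was 0.468. Myh6 and Myh7 have long coding transcripts, of 6113 and 6230 bases. After the trend of each library with transcript length was removed, their log2 fold changes were 0.27 and -0.19. Mhrt, a noncoding RNA antisense to Myh7 with 484 exonic bases in common, had no reads in 3 libraries and 0.742 normalized reads in wild-type library 1.

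The light chains sit on the neck of the myosin head. Myl7, the atrial regulatory light chain, which the early heart tube also uses, lies on chromosome 11 at 5896637 to 5898782 of GRCm38. It had 192 and 161 normalized reads in Wnt1-Cre;pMes-Bmp4 against 178 and 129 in wild-type. The libraries interleaved, and number 2 was the lower of the pair in each genotype. Its log2 fold change was 0.22 ± 0.27 (SE), its 95% interval ran from -0.41 to 0.84, and the limma adjusted p was 0.623.

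Myl4, the atrial essential light chain, had 11.7 and 14.5 normalized reads in Wnt1-Cre;pMes-Bmp4 against 35.6 and 9.26 in wild-type. Both transgenic libraries lay within the wild-type pair, and wild-type library 1 stood above the other 3. The exact 95% Poisson interval of that library ran from 26.3 to 47.2 and did not meet the interval of 4.23 to 17.6 in wild-type library 2. The log2 fold change of Myl4 was -0.46 ± 0.73 (SE, limma adjusted p 0.707), and it was 0.46 without wild-type library 1. Myl3, the ventricular essential light chain, had the fewest reads of the 10, with 4.27 and 2.42 normalized reads in Wnt1-Cre;pMes-Bmp4 against 3.71 and 5.14 in wild-type. That is 4 and 2 reads in the transgenic libraries and 5 and 5 in the wild-type libraries. Myl3 was tested when no filter on low values was used, with a log2 fold change of -0.34 ± 0.95 (SE, limma adjusted p 0.871). It shares 95 exonic bases with Pth1r, a receptor gene on the opposite strand, which had 645 and 429 normalized reads in Wnt1-Cre;pMes-Bmp4 and 277 and 337 in wild-type; the strand setting of the counting is not stated, so reads of these bases cannot be told apart.

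Actc1 encodes the cardiac form of alpha actin, the main thin filament protein of the embryonic heart and of early skeletal muscle. Its gene is at chr2:114047282-114053548 (GRCm38). The libraries read 320.0 and 241 normalized reads in Wnt1-Cre;pMes-Bmp4 against 182 and 243 in wild-type. Transgenic library 1 was highest, wild-type library 1 lowest, and the remaining libraries were nearly equal. As a log2 fold change this was 0.40 ± 0.25 (SE), its 95% interval ran from -0.19 to 0.99, and the limma adjusted p was 0.334. It was 0.60 with Wnt1-Cre;pMes-Bmp4 library 2 left out (limma adjusted p 0.104).

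Acta1, the skeletal alpha actin gene, is a close relative of Actc1, and the same comparison was made for this pair. The longest identical run of their coding sequences measured 29 bases, and no 50-base window of Actc1 occurred in a transcript of another gene. Both windows are spliced sense sequence of exons 6 to 7, on the minus strand at chr2:114047593-114048164 for Actc1 and chr8:123892136-123892270 for Acta1 in GRCm38, with the identical run in capitals. They are shown against the myosin pair above, where the identical run is longer.
Actc1: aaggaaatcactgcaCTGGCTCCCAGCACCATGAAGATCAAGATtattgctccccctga
Acta1: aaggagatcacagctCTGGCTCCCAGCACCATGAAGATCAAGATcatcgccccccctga

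Troponin is the calcium switch of the thin filament. Tnnt2, the cardiac troponin T that ties the complex to tropomyosin, had 23.5 and 8.49 normalized reads in Wnt1-Cre;pMes-Bmp4 against 10.4 and 4.11 in wild-type. Transgenic library 1 was the highest, and transgenic library 2 fell between the wild-type libraries. The log2 fold change was 1.00 ± 0.79 (SE), its 95% interval ran from -0.87 to 2.86, and the limma adjusted p was 0.443.

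Tnni1, the slow skeletal troponin I that is also the main form of the embryonic heart, had 7.47 and 23.0 normalized reads in Wnt1-Cre;pMes-Bmp4 against 34.1 and 20.6 in wild-type. Transgenic library 1 was the lowest, although it was the highest for Tnnt2. The log2 fold change of Tnni1 was -0.95 ± 0.66 (SE, limma adjusted p 0.383). With Wnt1-Cre;pMes-Bmp4 library 2 left out it was -1.70 (limma adjusted p 0.0779), the smallest p of any member in the settings run. Tnni1 and Tnnt2 lie 25364 bases apart on chromosome 1, at 135779434 to 135810989 and 135836354 to 135852260 of GRCm38. Actn2, the alpha-actinin that anchors thin filaments at the Z disc, had 22.4 and 12.1 normalized reads in Wnt1-Cre;pMes-Bmp4 against 11.1 and 23.7 in wild-type, with a log2 fold change of 0.02 ± 0.63 (SE, limma adjusted p 0.986).

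For all 9 genes tested, the gap between both libraries of at least 1 genotype was larger than the difference between the genotypes. For Actc1 these were close, at 0.416 and 0.402 on the log2 scale. The share of all genes tested with such a gap was not counted, so the 9 are not set apart from the background. The widest gaps were 1.84 on the log2 scale for Myl4 in wild-type and 1.51 for Tnni1 in Wnt1-Cre;pMes-Bmp4. For 7 of the 9 the 95% interval of the log2 fold change reached beyond a 2-fold change in at least 1 direction, so changes of that size lay within the error at this depth and number of libraries. The intervals of Actc1 and Myl7 stayed inside a 2-fold change in both directions.

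**Figure D2:**
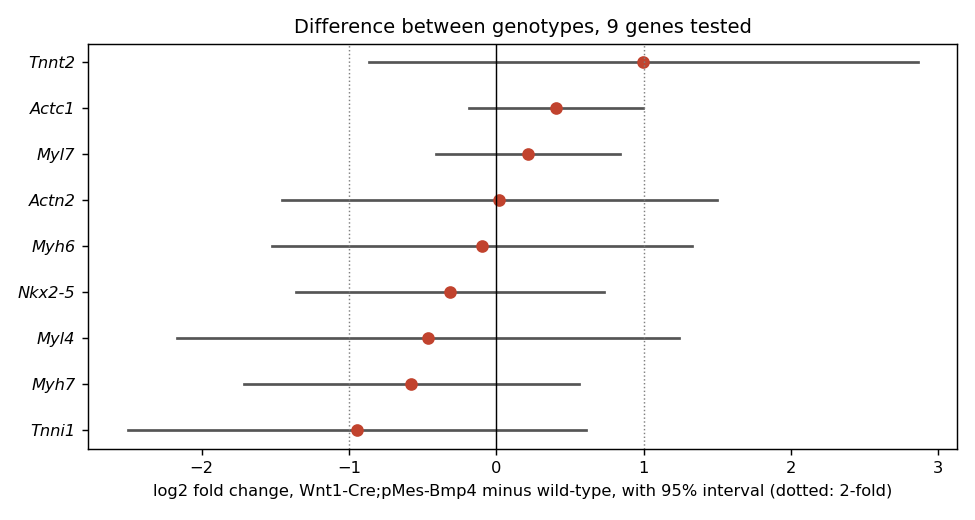
Log2 fold change of the 9 cardiac muscle genes tested, Wnt1-Cre;pMes-Bmp4 minus wild-type (points), with 95% intervals from limma (lines); dotted lines mark a 2-fold change. Every interval crosses 0, and those of Actc1 and Myl7, from -0.19 to 0.99 and from -0.41 to 0.84, are the narrowest.

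**Figure D3:**
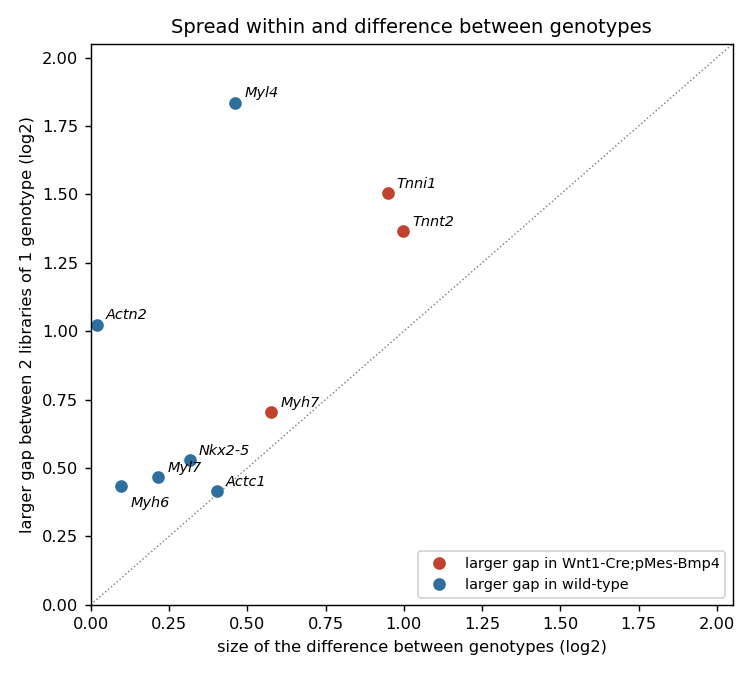
Size of the difference between genotypes (log2, horizontal) against the larger of the gaps between the 2 libraries of 1 genotype (log2, vertical) for the 9 genes tested; red marks genes with the larger gap in Wnt1-Cre;pMes-Bmp4 and blue those with the larger gap in wild-type. All 9 points lie above the dotted line of equality, with Myl4 highest at 1.84. The share of all genes tested that lie above this line was not counted.

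Levels of different genes were compared per kb of the longest coding transcript. Myl7 had the highest level, with a mean of 279.6 normalized reads per kb over the 4 libraries, and Actc1 was next at 167. Their ranges over the libraries, 218 to 325 and 123 to 217, did not meet. Myl7 stood at percentile 67.0 and Actc1 at percentile 58.1 of the 16225 genes tested that have a length. Nkx2-5 followed at 20.9 per kb, 8.01 times below Actc1. Myl4 at 18.9, Tnni1 at 18.5, Tnnt2 at 9.68, Actn2 at 5.75, Myh7 at 4.24 and Myl3 at 4.15 came next, and from Nkx2-5 to Myl3 each gene overlapped its neighbour in this order. Myh6 was lowest at 1.95 per kb, below the range of Myl3 and 144 times below Myl7. The median over all genes tested was 109.5 per kb, and 8 of the 10 cardiac muscle genes lay under it.

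Other sarcomere genes of the heart were read in a list of 24. Of these, 15 had a mean under 10 and 9 were tested. In limma and edgeR 0 were higher and 0 lower, as in DESeq2 among the genes it did not set aside for few reads. In limma 2 of 9 had an unadjusted p under 0.05, no larger a share than the 28.8% of all genes tested. The median log2 fold change was -0.20. Tpm1, a tropomyosin that many cell types use, was the one member at a high level, with 15524 and 15578 normalized reads in Wnt1-Cre;pMes-Bmp4 against 18949 and 16855 in wild-type. Nebl, a nebulin relative of the Z disc, had 207 and 240.1 in Wnt1-Cre;pMes-Bmp4 against 251 and 153 in wild-type (limma adjusted p 0.707). Nexn, an actin-binding Z disc protein, had 156 and 207 in Wnt1-Cre;pMes-Bmp4 against 279 and 268 in wild-type (limma adjusted p 0.142). Ttn, the giant spring protein of the sarcomere, had 59.7 and 61.8 in Wnt1-Cre;pMes-Bmp4 against 116 and 92.6 in wild-type, a log2 fold change of -0.76 that was 0.07 after the length correction. The ventricular light chain Myl2, named after its values were seen, had 4.27 and 0 in Wnt1-Cre;pMes-Bmp4 against 2.23 and 2.06 in wild-type. Tnnc1 and Tnni3 of the same list, given by library further below, had means of 19.0 and 16.3 normalized reads.

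Of 25 genes of cardiac calcium handling, conduction, peptides and energy supply, 14 were tested and 0 were called in limma and edgeR, with 2 at an unadjusted p under 0.05 in limma (28.8% of all genes tested) and a median log2 fold change of -0.18. Nppa, Bmp10 and Cox6a2 had 0 reads in all 4 libraries; they were named after their values were seen. Nppa encodes the atrial natriuretic peptide, an abundant product of the embryonic heart, and Bmp10 a growth factor of its trabeculae. A count of 0 allows up to 3 reads, which is 3.20 and 3.64 normalized reads in Wnt1-Cre;pMes-Bmp4 libraries 1 and 2 and 2.23 and 3.09 in wild-type libraries 1 and 2. The members at high levels, such as Gja1 and Atp2a2, are also used outside the heart. Gja5, Mb, Ryr2, Hcn4 and Popdc2, named after their values were seen, had reads in all 4 libraries. Their means were 99.0, 41.1, 32.1, 27.7 and 26.4 normalized reads, while 11 of the 25 genes had a mean under 10. Gja1, a gap junction protein, had 6994 and 7965 in Wnt1-Cre;pMes-Bmp4 against 6735 and 6679 in wild-type (limma adjusted p 0.455). Fabp3, a fatty acid carrier, had 179 and 205 in Wnt1-Cre;pMes-Bmp4 against 218 and 203 in wild-type (limma adjusted p 0.722). These 2 did not pass the test. Cacna1c, a calcium channel of the cell membrane, had 34.1 and 43.6 in Wnt1-Cre;pMes-Bmp4 against 61.6 and 102 in wild-type (limma adjusted p 0.141). Atp2a2, the calcium pump of the endoplasmic reticulum, had 2475 and 2587 in Wnt1-Cre;pMes-Bmp4 against 3271 and 3536 in wild-type, with a log2 fold change of -0.43 and a limma adjusted p of 0.0794; it was the 1 gene of this list that DESeq2 called, with an adjusted p of 0.0206. In limma it was called with quantile scaling (adjusted p 0.0381) and not after the length correction (adjusted p 0.267).

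Of 17 other transcription factors of the heart, 12 were tested and 0 were called in limma and edgeR, with 3 at an unadjusted p under 0.05 in limma (28.8% of all genes tested) and a median log2 fold change of -0.06. Srf, the partner of myocardin that drives many muscle genes and is present in most cells, was closest to the threshold. It had 615 and 388 normalized reads in Wnt1-Cre;pMes-Bmp4 against 873 and 1105 in wild-type, a log2 fold change of -1.01 ± 0.25 (SE, limma adjusted p 0.0515); DESeq2 called it lower, with an adjusted p of 0.00249. In limma it was also called with a pseudocount of 5, with robust priors, with TMM or quantile scaling, and with the minimum mean raised to 50 or dropped, at adjusted p values from 0.022 to 0.0496, and with either Wnt1-Cre;pMes-Bmp4 library left out. Its limma adjusted p was 0.157 without wild-type library 1 and 0.449 without wild-type library 2. Srf was not called in limma with a pseudocount of 0.5, without the variance trend, with the replicate block or after the length correction. Hey2, a Notch target of the ventricular wall and of arteries, had 197 and 200.1 in Wnt1-Cre;pMes-Bmp4 against 121 and 116 in wild-type (limma adjusted p 0.0892). Gata4 and Tbx5, factors of the heart muscle lineage named after their values were seen, were among the 5 that did not pass the minimum level. Tbx20, Gata6, Hand2 and Mef2c, also named after their values were seen, passed it, with means of 10.9, 25.0, 49.5 and 1475 normalized reads. Gata4 had 4.27 and 0 in Wnt1-Cre;pMes-Bmp4 against 2.97 and 11.3 in wild-type, and Tbx5 had 4.27 and 0 in Wnt1-Cre;pMes-Bmp4 against 0 and 3.09 in wild-type.

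Pharyngeal mesoderm and second heart field genes were all tested, 11 of 11, with 2 higher and 0 lower, against 2.97% and 5.28% of all genes tested. The median log2 fold change was 0.16. In limma 6 of the 11 had an unadjusted p under 0.05 (28.8% of all genes tested). Isl1, a marker of heart progenitors that also marks distal arch mesenchyme, and Nkx2-6 were the 2 that rose, with log2 fold changes of 1.34 and 2.41. Both calls were lost without wild-type library 1, with limma adjusted p values of 0.115 and 0.117, and without wild-type library 2, with 0.348 for each. Without the variance trend neither was called, and after the length correction Nkx2-6 was not (limma adjusted p 0.0583). The median level of the 11 genes, 190.1 normalized reads per kb, was above the 14.1 per kb of the 10 cardiac muscle genes, as the plot of levels per kb shows.

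**Figure D4:**
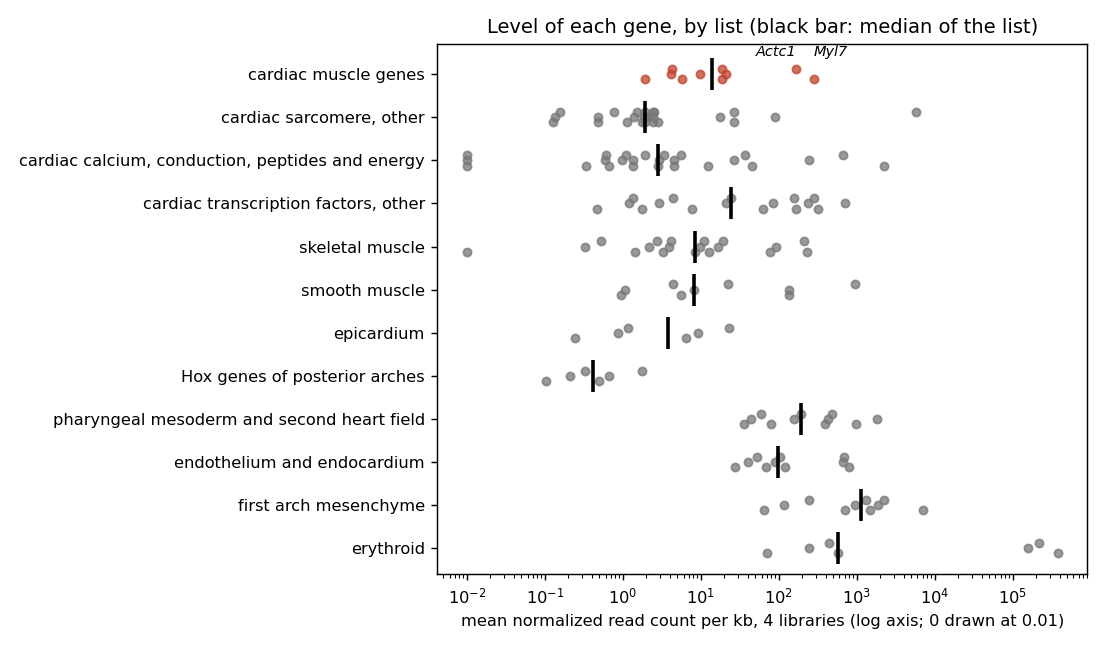
Mean normalized read count per kb over the 4 libraries (log axis, 0 drawn at 0.01) of each gene in 12 lists, with 1 point per gene and a black bar at the median of the list; the 10 cardiac muscle genes are in red. Their median of 14.1 per kb lies above those of 6 lists, among them other sarcomere genes at 1.91 and skeletal muscle at 8.38, and below those of 5, among them endothelium and endocardium at 96.2 and first arch mesenchyme at 1123.

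Skeletal muscle shares many of the 10 genes, so its own markers were read beside them. Of 19, 11 were tested and 0 were called in limma, edgeR or DESeq2, with 2 at an unadjusted p under 0.05 in limma (28.8% of all genes tested) and a median log2 fold change of 0.16. The summed level was 1109 and 1003 normalized reads in Wnt1-Cre;pMes-Bmp4 against 899 and 881 in wild-type, and Tnnc2 had 0 reads in all 4 libraries. Mylpf, the fast skeletal regulatory light chain, had 193 and 229 in Wnt1-Cre;pMes-Bmp4 against 162 and 110.1 in wild-type, with a limma adjusted p of 0.173. Des, the desmin filament of all muscle, had 407 and 274 in Wnt1-Cre;pMes-Bmp4 against 211 and 219 in wild-type, with a limma adjusted p of 0.144. Myod1, a master regulator of skeletal muscle named after its values were seen, had 6.40 and 3.64 in Wnt1-Cre;pMes-Bmp4 against 10.4 and 10.3 in wild-type. How much of the reads of the 10 cardiac muscle genes came from skeletal muscle cells was not tested.

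Of 9 smooth muscle markers, 6 were tested and 0 were called in limma or edgeR, or in DESeq2 among the genes it did not set aside. In limma 3 had an unadjusted p under 0.05 (28.8% of all genes tested). Mylk, the kinase that activates smooth muscle myosin, had 143 and 120.0 in Wnt1-Cre;pMes-Bmp4 against 235 and 208 in wild-type. Lmod1, an actin-nucleating protein of smooth muscle, had 10.7 and 7.27 in Wnt1-Cre;pMes-Bmp4 against 28.2 and 23.7 in wild-type. Acta2, named after its values were seen, went the other way. It had 468 and 244 in Wnt1-Cre;pMes-Bmp4 against 153 and 222 in wild-type (limma adjusted p 0.151). The median log2 fold change of the 6 smooth muscle markers tested was 0.02. The 10 markers of endothelium and endocardium, the lining of vessels and heart, were all tested; 0 were called in limma and edgeR, 5 had an unadjusted p under 0.05 in limma (28.8% of all genes tested), and DESeq2 called 1 higher and 1 lower. Their summed level was 7401 and 7174 in Wnt1-Cre;pMes-Bmp4 and 5764 and 6178 in wild-type. Emcn, a sialomucin of venous endothelium and endocardium, had 1847 and 2284 in Wnt1-Cre;pMes-Bmp4 against 1413 and 1311 in wild-type (limma adjusted p 0.0583). Pecam1, an adhesion protein of endothelium, had 271 and 307 in Wnt1-Cre;pMes-Bmp4 against 173 and 187 in wild-type (limma adjusted p 0.0883). Nfatc1, named after its values were seen, went the other way. It had 155 and 101 in Wnt1-Cre;pMes-Bmp4 against 202 and 312 in wild-type (limma adjusted p 0.0916). The median log2 fold change of the 10 was 0.23. Of 7 erythroid markers, all tested, 0 were higher and 2 lower, against 2.97% and 5.28% of all genes tested. In limma 3 of the 7 had an unadjusted p under 0.05 (28.8% of all genes tested). The 2 lower were the embryonic globins Hbb-y and Hba-x, with log2 fold changes of -0.99 and -0.81 (limma adjusted p 0.0218 and 0.0274). Both globin calls were lost without either wild-type library and without the variance trend. That of Hba-x was also lost with the replicate block (limma adjusted p 0.0603) and that of Hbb-y after the length correction (limma adjusted p 0.0539). The summed erythroid level was 340898 and 380898 in Wnt1-Cre;pMes-Bmp4 against 674032 and 613209 in wild-type. The part of blood or vessel content in the values of the cardiac muscle genes was not tested.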

How the data were processed

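Libraries were made from polyA RNA primed with random hexamers, per the labels' protocols. The authors deposited a normalized signal for each gene: per the file headers, read counts from featureCounts, scaled for each library. Per the submitters' processing notes, fastp 0.21.0 and mm10 were used; aligner, annotation and strand setting are not stated by the sources used here. Whole reads were recovered for 100% of the values (tolerance 0.01), taking the lowest value above 0 in each column as 1 read.

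Genes were tested in R 4.3.3 by limma 3.58.1 with a variance trend, on log2 of the value plus 1, for genes with a mean of at least 10. P-values are two-sided, after Benjamini-Hochberg adjustment over all 16746 genes tested. Fold changes on this scale understate the change of low genes. An exact permutation test of 2 libraries against 2 cannot go below a two-sided p of 0.333. The alternatives were other pseudocounts, filters, scalings and variance priors, a replicate block, a length correction (a spline with 4 degrees of freedom on log2 transcript length, from genes with a mean of at least 50), each library left out, edgeR 4.0.16 and DESeq2 1.42.0. The main limma fit, edgeR, DESeq2, the replicate block and the length correction were tested on simulated data, and the other alternatives were not.

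The 10 genes and all lists were chosen with earlier results of these data known. From each other list at most 4 called genes, or the 2 with the smallest p, are named, and for the sarcomere and calcium lists also the 3 highest. Genes alike in pattern were to be named only if the mean profile of the members spanned more than 1 on the log2 scale; it spanned 0.23. Coordinates, transcripts and lengths (the longest coding transcript) are those of GENCODE M21 (GRCm38, which is mm10). Poisson intervals and the limit of 3 reads for a count of 0 cover counting error only.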

Additional observations from a re-analysis of the deposited data

How the results depend on the processing

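None of the 9 cardiac muscle genes tested was called in any alternative run that tested it. The run with no filter tested all 10, and that with a minimum mean of 50 tested 2, Actc1 and Myl7. DESeq2 gave an adjusted p to 2 of 9. In the alternatives with both libraries of each genotype, 0 reached an unadjusted p under 0.05. Without Wnt1-Cre;pMes-Bmp4 library 2, the log2 fold changes of Actc1 and Tnni1 were 0.60 and -1.70. For 5 of the 9 the log2 fold change kept its sign in all alternatives. Myh6 changed sign with quantile scaling (0.13) and length correction (0.27), and ranged from -0.32 to 0.12 with a library left out. Actn2 changed sign with TMM scaling (-0.016), edgeR (-0.0058), DESeq2 (-0.0059) and length correction (-0.10), and ranged from -0.49 to 0.53. With a library left out Myl7 ranged from -0.017 to 0.45, Myl4 from -1.38 to 0.46, Nebl from -0.17 to 0.54 and Upk1b from -0.094 to 4.08. Ttn was at 0.071 with the length correction. The cause of these changes was not tested.

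Over all genes, 498 were higher and 884 lower. The counts were 0 and 0 without the variance trend (3925 at an unadjusted p under 0.05), 809 higher with robust priors, 1284 and 1582 in DESeq2, and 69 and 109 after the length correction. With a library left out they ranged from 0 to 2675 higher and from 0 to 2719 lower. Leaving out wild-type library 1 gave 0 and 0 (3185 by unadjusted p), wild-type library 2 gave 1 and 0 (1806 by unadjusted p), and the counts were 2675 and 2719 without Wnt1-Cre;pMes-Bmp4 library 1, and 1201 and 1902 without its library 2. Genes of the 11 lists, 4 higher and 4 lower, came to 0 and 0 without the trend, 7 higher with robust priors, 7 and 11 in DESeq2, 1 and 2 after the length correction, 7 lower with no filter and 7 lower with quantile scaling; with a library left out they ranged from 0 to 14 higher and from 0 to 18 lower. Bmp4 kept a log2 fold change of 1.98 without the trend, where its limma adjusted p was 0.145, and ranged from 1.66 to 2.30 with a library left out.

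The replicate block gave 165 higher and 543 lower genes over all genes tested, and 0 cardiac muscle genes. Same-numbered libraries only share a number, and their deviations correlated at -0.15 across genes. With the numbers crossed, an alternative chosen after seeing the data, the block gave 1763 and 1952 over all genes tested and 9 and 15 in the lists.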

Other observations

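Epicardium markers, 6 in all, had 3 genes tested and 0 called in limma or edgeR, or in DESeq2 among the genes it did not set aside. In limma 1 had an unadjusted p under 0.05 (28.8% of all genes tested). Aldh1a2, the retinoic acid synthesis enzyme used as one of them, had 88.5 and 75.2 normalized reads in Wnt1-Cre;pMes-Bmp4 against 42.3 and 2.06 in wild-type, with a limma adjusted p of 0.140. Upk1b, a uroplakin, had 14.9 and 17.0 in Wnt1-Cre;pMes-Bmp4 against 17.1 and 0 in wild-type. Wild-type library 2 was thus the lowest for both genes, while it was the highest of the 4 for Nkx2-5 and Actn2. Tnnc1 and Tnni3 are the partners of Tnnt2 in the cardiac troponin complex and were named after their values were seen. Tnnc1 had 27.7 and 10.9 in Wnt1-Cre;pMes-Bmp4 against 26.0 and 11.3 in wild-type (limma adjusted p 0.986). Tnni3 had 14.9 and 14.5 in Wnt1-Cre;pMes-Bmp4 against 22.3 and 13.4 in wild-type (limma adjusted p 0.829).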
